A study of Danio rerio with 21 samples.

Results

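The enzymes that build cholesterol were followed in liver RNA-seq counts of zebrafish larvae at 7 dpf (days post fertilization). They are 9 genes, chosen by name as steps of mevalonate and sterol synthesis, out of 32520 genes counted. In pathway order they are hmgcs1 (ENSDARG00000103025), hmgcra (ENSDARG00000052734), hmgcrb (ENSDARG00000105206), idi1 (ENSDARG00000019976), fdft1 (ENSDARG00000101062), sqlea (ENSDARG00000079946), lss (ENSDARG00000061274), cyp51 (ENSDARG00000042641) and dhcr7 (ENSDARG00000103226). All 9 were among the 30792 genes with enough counts to be compared.

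Livers were taken from 7 genotypes, with 3 libraries each. WT larvae were compared with sec31anju221, a gene trap allele of sec31a. The trapped gene encodes a fusion protein that lacks the C-terminal end of Sec31a, an outer coat protein of the COPII vesicles that carry cargo from the ER to the Golgi, and the allele is a hypomorph. The other 5 genotypes carry sec31anju221 and in addition a CRISPR deletion in a transcription factor gene. Their labels are srebf1-/-;sec31anju221, srebf2-/-;sec31anju221, xbp1-/-;sec31anju221, atf6-/-;sec31anju221 and atf4a-/-;atf4b-/-;sec31anju221, written below as the srebf1, srebf2, xbp1 and atf6 double mutants and the libraries labelled atf4a/b. All lines were kept on an AB background. Each mutation is germline, so no cell type of the larva is spared, and the factors were not disrupted without the trap in these libraries, so each is compared with sec31anju221. The question put to the double mutants was which of these factors acts in the livers with the trap.

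Cholesterol synthesis starts from acetyl-CoA. HMG-CoA synthase and HMG-CoA reductase make mevalonate, and the reductase is the rate-limiting step. Mevalonate is turned into isoprenoid units and farnesyl diphosphate, which also feed dolichol, coenzyme Q and protein prenylation. Squalene synthase commits the pathway to sterols, and squalene is then oxidised, closed to lanosterol and trimmed to cholesterol in the ER. In mammals the genes of the whole pathway are driven together by SREBP2, the product of the srebf2 orthologue. SREBP2 is carried from the ER to the Golgi in COPII vesicles for cleavage when ER sterol is low, and is held in the ER by INSIG proteins when it is high. Atf6 takes a similar route to cleavage, while Xbp1 and Atf4 are the factors of the other arms of the unfolded protein response.

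The libraries held 9608400 to 23095746 counts. Within each genotype the spread of the 3 libraries was close to that of read sampling. For genes of high counts the variance between them was 1.85 to 2.25 times the mean, where a coefficient of variation of 10% would give 36.5 to 38.9 times. They were therefore counted as 1 sample per genotype. Differences between genotypes have no replicate check, no p-values are given for them, and the ranges over libraries give sequencing precision only. A gene is called higher or lower where the fold was over 2 and no library of one genotype overlapped the other. Levels are CPM, counts brought to a common library total after TMM scaling (trimmed mean of M-values, fitted over all genes kept). The labels could be checked by the disrupted genes. The level of sec31a was 19.5 CPM in WT and 2.64 CPM in sec31anju221. The level of xbp1 was 104 CPM in sec31anju221 and 0.384 CPM in the xbp1 double mutant, that of atf6 was 328 and 4.39 CPM, that of srebf1 was 1.57 and 0.457 CPM, and that of srebf2 was 4.45 and 1 CPM, each in its own double mutant. The srebf1 values rest on 74 and 20 counts. Its level was as low in the srebf2 double mutant, at 0.407 CPM from 13 counts, so it does not tell these genotypes apart. In the libraries labelled atf4a/b, atf4a had 12.6 CPM against 6.41 CPM in sec31anju221 and atf4b 132 CPM against 88.4 CPM, so these counts do not show the disruption.

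Hepatocyte markers were detected in every library, none at 0. The summed level of the 9 hepatocyte markers, which include fabp10a, tfa and apoa2, was 615000 to 630000 CPM in WT and 169000 to 173000 CPM in sec31anju221. It was 257000 to 263000 CPM in the srebf1 and 302000 to 309000 CPM in the srebf2 double mutant, and between 49200 and 82400 CPM in the xbp1 and atf6 double mutants and the libraries labelled atf4a/b. Most of each sum was apoa2, and how far these last sums lay below sec31anju221 depended on the scaling. Mean apoa2 before TMM scaling was 282000 CPM in WT and 115000 CPM in sec31anju221. With xbp1 disrupted, with atf6 disrupted and under the atf4a/b label, the unscaled means were 98600, 85500 and 107000 CPM, respectively. In bulk tissue, fewer cells of a type and less RNA per cell cannot be told apart. The 5 matched intestine markers summed to 2670 to 2740 CPM in WT, 3910 to 3940 CPM in sec31anju221 and 3400 CPM in the srebf1 double mutant. They summed to at most 847 CPM in the others, with fabp6 at 0 in the srebf2 double mutant. Before TMM scaling fabp2 and apoa4b.2, most of these sums, had means of 808 and 501 CPM in WT. Their means were 1160 and 188 CPM in the xbp1 double mutant, so its distance from WT depended on the scaling. The 3 biliary markers summed to 2870 to 2890 CPM in WT, 1440 to 1490 CPM in sec31anju221 and 3860 to 3890 CPM in the srebf2 double mutant. Most of each of these sums was anxa4, with 936 CPM in sec31anju221 and 2710 CPM in the srebf2 double mutant. The marker epcam did not follow the sum. It had 112 CPM in WT, 61.2 CPM in sec31anju221 and 51 CPM in the srebf2 double mutant (log2 -0.26 against sec31anju221, not called). The 5 matched exocrine pancreas markers summed to 104 to 118 CPM in WT, 359 to 365 CPM in the srebf1 double mutant, 482 to 505 CPM in the atf6 double mutant and 4.74 to 24.7 CPM in the rest. The part of these differences in the values of the enzymes was not tested.

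Between WT and sec31anju221 the 9 enzymes did not move as a group. The 3 genes that make mevalonate were higher in sec31anju221, cyp51 was lower, and the other 5 were not called. The 3 higher genes stand beside 13.8% of all genes tested, and the 1 lower gene beside 10% of them. The median log2 fold change was 0.01 over the 9 genes and 0.18 over all genes.

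The largest rise was that of hmgcra, which encodes 1 of the HMG-CoA reductase paralogs. Its 3 WT libraries had 6.44, 5.85 and 3.30 CPM and its sec31anju221 libraries had 62.7, 60.7 and 57.6 CPM. All sec31anju221 libraries lay far above all WT libraries, an 11.6-fold difference (log2 3.54, range over pairs of libraries 3.16 to 4.25). The other reductase gene, hmgcrb, had 20.3, 20.3 and 21.7 CPM in WT and 52.8, 50.5 and 55.5 CPM in sec31anju221, a 2.54-fold difference. For hmgcs1, which encodes the HMG-CoA synthase that supplies the reductase, the libraries had 10, 11.7 and 9.27 CPM in WT. They had 40.9, 39.3 and 37.8 CPM in sec31anju221, 3.81-fold more. All 3 genes had the same direction under each scaling tried. Of all genes, 6552 were over 2-fold higher and 4316 lower in sec31anju221, with or without overlap, and 12901 and 2106 with library totals alone.

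None of the other 6 enzymes was called higher. The isomerase gene idi1, whose product balances the isoprenoid units, had 6.35, 9.09 and 6.50 CPM in WT and 4.41, 3.51 and 3.83 CPM in sec31anju221. These libraries did not overlap, but the fold was 1.87 and under the threshold, and the sign turned with scaling to hepatocyte markers (log2 0.37). The squalene synthase gene fdft1 had 0.984, 0.450 and 0.713 CPM in WT and 0.575, 0.956 and 0.639 CPM in sec31anju221, and the libraries overlapped. It rested on 24 and 34 counts in all, so its ratio of 1.01 had a 95% counting interval of 0.582 to 1.78. Both sqlea, a squalene epoxidase gene, and lss, the lanosterol synthase gene, also overlapped between the genotypes, with log2 fold changes of -0.49 and -0.09.

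The lanosterol demethylase gene cyp51 went the other way. It had 5.19, 5.58 and 4.45 CPM in WT and 0.383, 0.510 and 0.639 CPM in sec31anju221, a 9.8-fold lower level that rested on 170 and 24 counts. The lowest WT library was well above the highest of sec31anju221. The reductase gene of the last step to cholesterol, dhcr7, had 33.0, 37.1 and 31.4 CPM in WT. It had 49.0, 50.7 and 46.0 CPM in sec31anju221, with no overlap and a fold of 1.44.

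**Figure D1:**
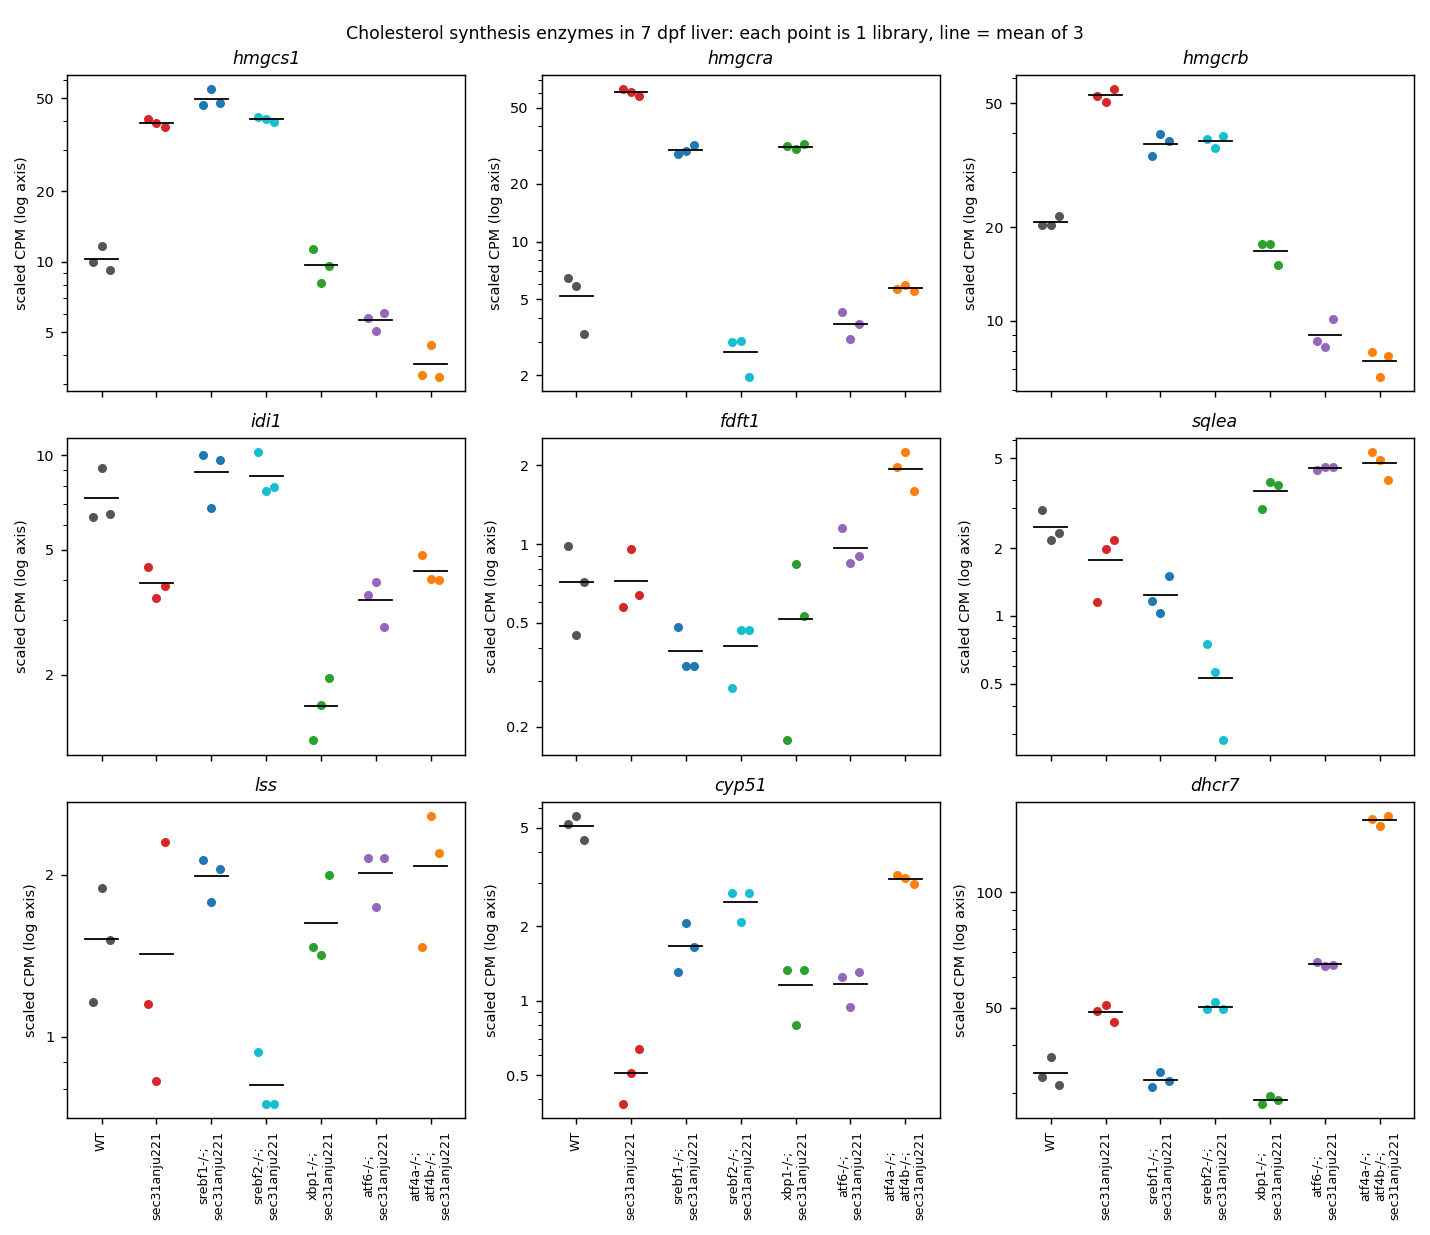
Level of each enzyme gene in each of the 21 libraries, in scaled CPM on a log axis, with 1 panel per gene, 1 color per genotype and a line at the mean of 3 libraries. In sec31anju221, hmgcra, hmgcrb and hmgcs1 sit above WT and cyp51 sits below it, while dhcr7 is highest in the libraries labelled atf4a/b, at 149 to 158 CPM.

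The other steps of the pathway divided in a similar way. Of 18 further genes listed, 16 could be matched to an identifier, and 3 of these were higher and 6 lower in sec31anju221 than in WT. Over all genes 13.8% were higher and 10% lower. The 3 higher genes were pmvk, the phosphomevalonate kinase gene, at 42.8 CPM against 4.72 CPM (log2 3.18), ebp, a sterol isomerase gene, at 7.70 CPM against 0.984 CPM (log2 2.96), and acat2, the thiolase gene of the opening step, at 41.3 CPM against 17.6 CPM (log2 1.23). The 6 lower genes were mvk, the mevalonate kinase gene (log2 -1.58), the sterol reductase gene tm7sf2 (log2 -2.78), the methylsterol oxidase gene msmo1 (log2 -2.73), the dehydrogenase gene nsdhl (log2 -3.30), the desaturase gene sc5d (log2 -3.21) and erg28, which in yeast encodes a scaffold of the sterol demethylation enzymes. The last had 48 counts in WT and 2 in sec31anju221, a ratio of 0.0297 with a 95% counting interval of 0.0035 to 0.113. The median log2 fold change of the 16 genes was -0.83 and that of all genes 0.18.

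The enzymes and the other steps except ggps1 (log2 0.78, not called) were put in pathway order. Of these, 9 genes led from acetyl-CoA to farnesyl diphosphate and 15 from squalene synthase to cholesterol. This division was made after the values were seen and is a description only. Over all genes 13.8% were higher and 10% lower in sec31anju221, with a median log2 fold change of 0.18. Of the 9 early genes 5 were higher and 1 lower, with a median of 1.23. Of the 15 late genes 1 was higher and 6 were lower, with a median of -0.81. The exceptions were mvk among the early genes and ebp among the late ones. Scaling to 8 hepatocyte markers in place of all genes moved all values of this comparison by 1.27, so that fdft1 (log2 1.28), lss (1.17) and dhcr7 (1.79) were then over 2-fold higher as well, and cyp51 was at -2.03. The counts and medians of the early and late genes are thus given for TMM scaling only.

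**Figure D2:**
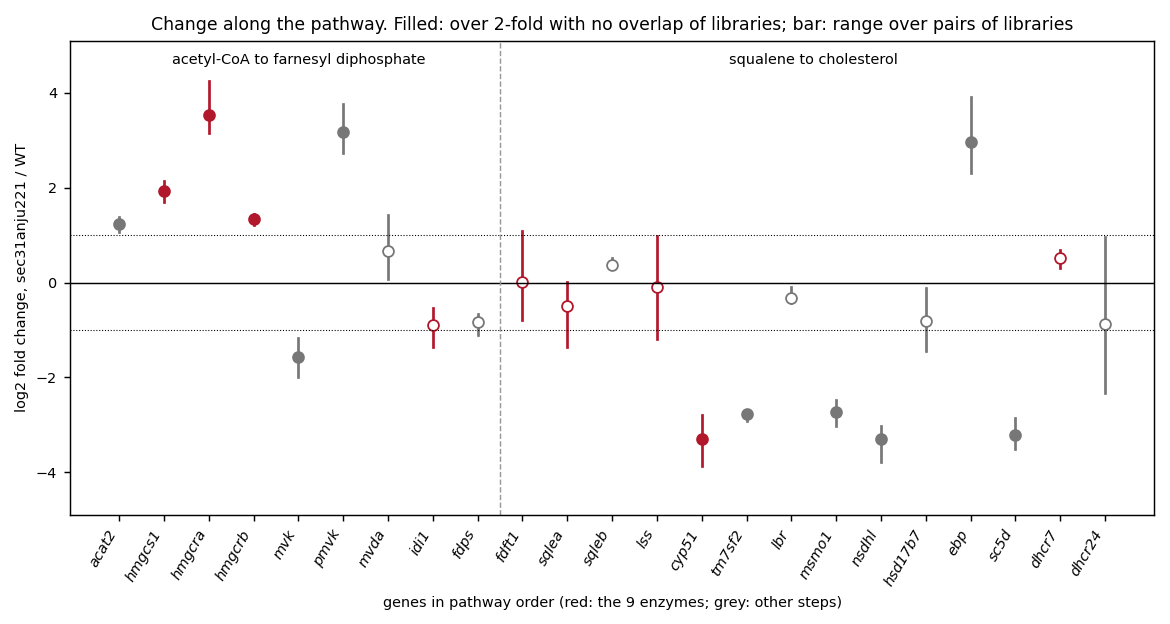
Log2 fold change between sec31anju221 and WT for 23 genes of cholesterol synthesis in pathway order, the 9 enzymes in red and the other steps in grey, with bars for the range over pairs of libraries, dotted lines at a fold of 2 and filled points for called genes. Called genes left of the dashed line are higher, with hmgcra at 3.54, except mvk at -1.58, and those to its right are lower, with cyp51 at -3.29, except ebp at 2.96.

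In the srebf2 double mutant, the enzymes again did not move together. Against sec31anju221, hmgcra and sqlea were lower and idi1 and cyp51 were higher, beside 25.0% of all genes lower and 11.7% higher. The median of the 9 genes was -0.49 and that of all genes -0.43. The gene hmgcra had 3, 3.01 and 1.97 CPM, 22.6-fold below sec31anju221. Its mean of 2.66 CPM lay under the 5.20 CPM of WT, and the libraries of these groups did not overlap, but they did before TMM scaling, at 1.69, 1.68 and 1.11 CPM against 3.12, 2.82 and 1.61 CPM. For sqlea the 3 libraries had 0.750, 0.564 and 0.282 CPM against 1.15, 1.98 and 2.17 CPM, from 17 and 83 counts. The second epoxidase gene, sqleb, had 0 counts in this genotype and 22 in sec31anju221, so that the 95% counting interval of its ratio reached 0.269.

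With TMM scaling the other reductase gene and the synthase gene were not called lower in the same libraries. The level of hmgcrb was 38.4, 35.8 and 39.1 CPM, 1.40-fold below sec31anju221 and above every WT library. The level of hmgcs1 was 41.7, 40.9 and 39.8 CPM and overlapped sec31anju221, at a log2 fold change of 0.05. The level of dhcr7 also overlapped, at 49.7, 51.6 and 49.5 CPM. So did that of lss, at a log2 fold change of -0.80 that was -1.08 without the second sec31anju221 library, and fdft1 was at -0.82 with no overlap, from 13 and 34 counts. In contrast, cyp51 had 2.72, 2.07 and 2.73 CPM, 4.85-fold above sec31anju221 and below the lowest WT library, and idi1 had 10.2, 7.71 and 7.90 CPM, a 2.20-fold difference. The call of idi1 was lost without the first srebf2 double mutant library (log2 0.99) and when the scaling was fitted on genes of at least 10 CPM (log2 0.95) and its sign turned under scaling to the hepatocyte markers (log2 -0.97), which were higher in this genotype. With that scaling 7 of the 9 enzymes were lower than in sec31anju221, hmgcra was at a log2 fold change of -6.60, hmgcrb and hmgcs1 were at -2.59 and -2.05, and cyp51 was at 0.17 and no longer called.

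Of the 16 other steps of the pathway, 5 were higher and 4 lower in the srebf2 double mutant than in sec31anju221. Over all genes 11.7% were higher and 25.0% lower, so the lower steps are near the share of all genes. Those lower were pmvk (log2 -3.80), ebp (log2 -3.54), mvk (log2 -1.65) and sqleb. Of these, pmvk and ebp were among the genes higher in sec31anju221 than in WT. Those higher were acat2 (log2 1.19), tm7sf2 (log2 1.13), nsdhl (log2 3.21), sc5d (log2 1.52) and erg28, with 37 counts against 2. All but acat2 were lower in sec31anju221 than in WT. The comparisons share the sec31anju221 libraries, so a level that is extreme there enters both.

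In the srebf1 double mutant hmgcra was closer to sec31anju221 than in the srebf2 double mutant. There hmgcra had 28.6, 29.8 and 31.8 CPM, a 2.01-fold lower level that lies at the threshold, and the log2 fold change was -0.98 without the first sec31anju221 library and -0.97 without the first library of the double mutant. In the same cases fdft1 (-0.88 with all libraries) came to -1.02 and -1.06. Only hmgcra was called lower with all libraries, beside 14.7% of all genes. The genes idi1 and cyp51 were higher, 2.25-fold and 3.23-fold, beside 12.0% of all genes. The level of cyp51 was 1.31, 2.06 and 1.64 CPM, between those of sec31anju221 and WT. The levels of hmgcrb (33.7, 39.7 and 37.7 CPM) and hmgcs1 (46.9, 54.9 and 47.6 CPM) were above WT in every library. Levels of sqlea and lss overlapped sec31anju221, and dhcr7 had 31.0, 33.9 and 32.2 CPM, 1.5-fold lower. With scaling to hepatocyte markers idi1 and cyp51 were at log2 fold changes of 0.10 and 0.62 and no longer called. The medians were -0.51 for the 9 genes and -0.12 for all genes. Of the 16 other steps, 6 were higher and 2 were lower, the latter again pmvk (log2 -2.78) and ebp (log2 -2.51).

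The other 3 genotypes need a further measure, since the change between their libraries and sec31anju221 depended on the level of a gene. Their libraries held 9608400 to 11666806 counts, against 18918025 to 23095746 in the remaining genotypes. Before TMM scaling 21674 to 23458 genes reached 1 CPM in them, against 11627 to 15433. The part of this library difference in the values of the enzymes was not tested. Among genes with a mean of 10 CPM or more, the median log2 fold change was -1.21 in the xbp1 double mutant, -1.52 in the atf6 double mutant and -1.25 in the libraries labelled atf4a/b. Among genes below 1 CPM it was 0.47, 0.56 and 0.50. The genes hmgcra, hmgcrb, hmgcs1 and dhcr7 belong to the former class, idi1 to the class of 5 to 10 CPM, with medians of -0.32, -0.42 and -0.37, sqlea, lss and cyp51 to the class of 1 to 5 CPM, with medians of 0.39, 0.46 and 0.41, and fdft1 to the lowest. With scaling factors taken from genes of at least 10 CPM, all values moved up by 1.19, 1.43 and 1.21 in these genotypes. The number of genes over 2-fold higher, with or without overlap of libraries, then went from 4878 to 19478 in the xbp1 double mutant, from 6121 to 20788 in the atf6 double mutant and from 5856 to 19316 in the libraries labelled atf4a/b, and of those lower from 5835 to 1413, 6791 to 2002 and 6473 to 2578.

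In the libraries labelled atf4a/b, hmgcs1, hmgcra and hmgcrb were lower than in sec31anju221, beside 18.6% of all genes lower. Of the genes of 10 CPM or more, the class they belong to, 58.2% were called lower. The level of hmgcs1 was 3.28, 4.43 and 3.23 CPM, 10.8-fold lower. The level of hmgcra was 5.68, 5.96 and 5.53 CPM, 10.5-fold lower. The level of hmgcrb was 7.92, 6.62 and 7.73 CPM, 7.13-fold lower. Where these genes stand against WT depends on the scaling. Before TMM scaling hmgcs1 had 5.16, 6.96 and 5.06 CPM against 4.85, 5.63 and 4.53 CPM in WT, and hmgcrb 12.5, 10.4 and 12.1 CPM against 9.83, 9.79 and 10.6 CPM, so both overlapped WT, while hmgcra had 8.95, 9.37 and 8.66 CPM against 3.12, 2.82 and 1.61 CPM and lay above it. With the scaling from genes of at least 10 CPM these remained lower, at log2 fold changes of -2.21, -2.18 and -1.62.

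In the same libraries 4 enzymes acting after mevalonate were higher, beside 13.5% of all genes. The level of dhcr7 was 155, 149 and 158 CPM, 3.17-fold above sec31anju221 and above every other library of the series. It was a gene of 10 CPM or more, the class whose median was -1.25, and 3.50% of that class was called higher. The level of cyp51 was 3.22, 3.12 and 2.96 CPM, 5.99-fold above sec31anju221, that of sqlea was 5.30, 4.92 and 4 CPM, 2.68-fold above, and that of fdft1 was 1.97, 2.24 and 1.59 CPM, 2.65-fold above. Only idi1 and lss overlapped sec31anju221 (log2 0.13 and 0.54, the latter 1.07 without the third sec31anju221 library). The medians were 0.54 over the 9 genes and 0.22 over all genes. Of the other steps 3 of 16 were higher and 6 were lower, beside 13.5% and 18.6% of all genes. Among the lower ones were pmvk (log2 -3.70) and acat2 (log2 -2.70). Several of the lower ones, among them acat2 and ggps1, belong to the genes of 10 CPM or more, of which 58.2% were called lower. The higher ones were lbr, nsdhl and erg28.

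The atf6 double mutant gave the same 3 lower genes, beside 19.9% of all genes lower. Of their class, genes of 10 CPM or more, 67.9% were called lower. The level of hmgcra was 4.29, 3.09 and 3.69 CPM, 16.3-fold below sec31anju221. The levels of hmgcrb (8.63, 8.27 and 10.1 CPM) and hmgcs1 (5.74, 5.08 and 6.04 CPM) were 5.87-fold and 6.99-fold lower. With TMM scaling these levels were below every WT library, but before it hmgcrb had 18, 17.3 and 21.1 CPM and hmgcs1 12.0, 10.6 and 12.6 CPM, above every WT library, as was hmgcra at 8.95, 6.45 and 7.70 CPM. With the scaling from genes of at least 10 CPM the log2 fold changes were -2.59, -1.11 and -1.37. Higher were sqlea (4.44, 4.58 and 4.59 CPM, 2.56-fold) and cyp51 (1.25, 0.946 and 1.30 CPM, 2.26-fold), beside 14.6% of all genes. The level of dhcr7 was 65.7, 64.1 and 64.6 CPM, 1.33-fold above sec31anju221 with no overlap, while idi1, fdft1 and lss overlapped (log2 -0.18, 0.41 and 0.49, the last 1.02 without the third sec31anju221 library). Of the 16 other steps 2, nsdhl and erg28, were higher and 6 lower, and the medians were 0.41 for the 9 enzymes and 0.24 for all genes. Several of the lower steps, among them acat2 and ggps1, also belong to the class of 10 CPM or more.

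In the xbp1 double mutant, hmgcra departed from hmgcrb and hmgcs1. It had 31.5, 30.3 and 32.3 CPM, 1.92-fold below sec31anju221 and above every WT library. The level of hmgcrb was 17.7, 17.6 and 15.1 CPM, 3.15-fold below sec31anju221, and that of hmgcs1 was 11.4, 8.15 and 9.62 CPM, 4.04-fold below. The level of idi1 was 1.24, 1.6 and 1.95 CPM, 2.44-fold below, but before TMM scaling its 2.59, 3.33 and 4.07 CPM overlapped the 3.35, 2.67 and 2.92 CPM of sec31anju221. These 3 genes were lower beside 17% of all genes tested. In the class of hmgcrb and hmgcs1, 10 CPM or more, 60.5% of genes were called lower, and in that of idi1 28%. Higher were sqlea (2.98, 3.94 and 3.81 CPM) and cyp51 (1.33, 0.798 and 1.33 CPM), 2.02-fold and 2.24-fold, beside 10.9% of all genes. With the scaling from genes of at least 10 CPM none of the 9 was over 2-fold lower and hmgcra was at a log2 fold change of 0.25, hmgcrb at -0.46, hmgcs1 at -0.82 and idi1 at -0.09. The higher calls of sqlea and cyp51 rested on the first sec31anju221 library, without which their log2 fold changes were 0.78 and just under 1. That of sqlea was 0.98 without the second xbp1 double mutant library. Levels of fdft1 and lss overlapped sec31anju221, and dhcr7 had 28.1, 29.4 and 28.8 CPM, 1.69-fold lower, where the median of its class was -1.21 (log2). With the scaling from genes of at least 10 CPM dhcr7 was at 0.44. The medians were -0.75 for the 9 enzymes and 0.20 for all genes, and 4 of the 16 other steps (mvk, nsdhl, sc5d and erg28) were higher and 6 lower. Several of the lower steps, among them acat2 and ggps1, also belong to the class of 10 CPM or more.

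**Figure D3:**
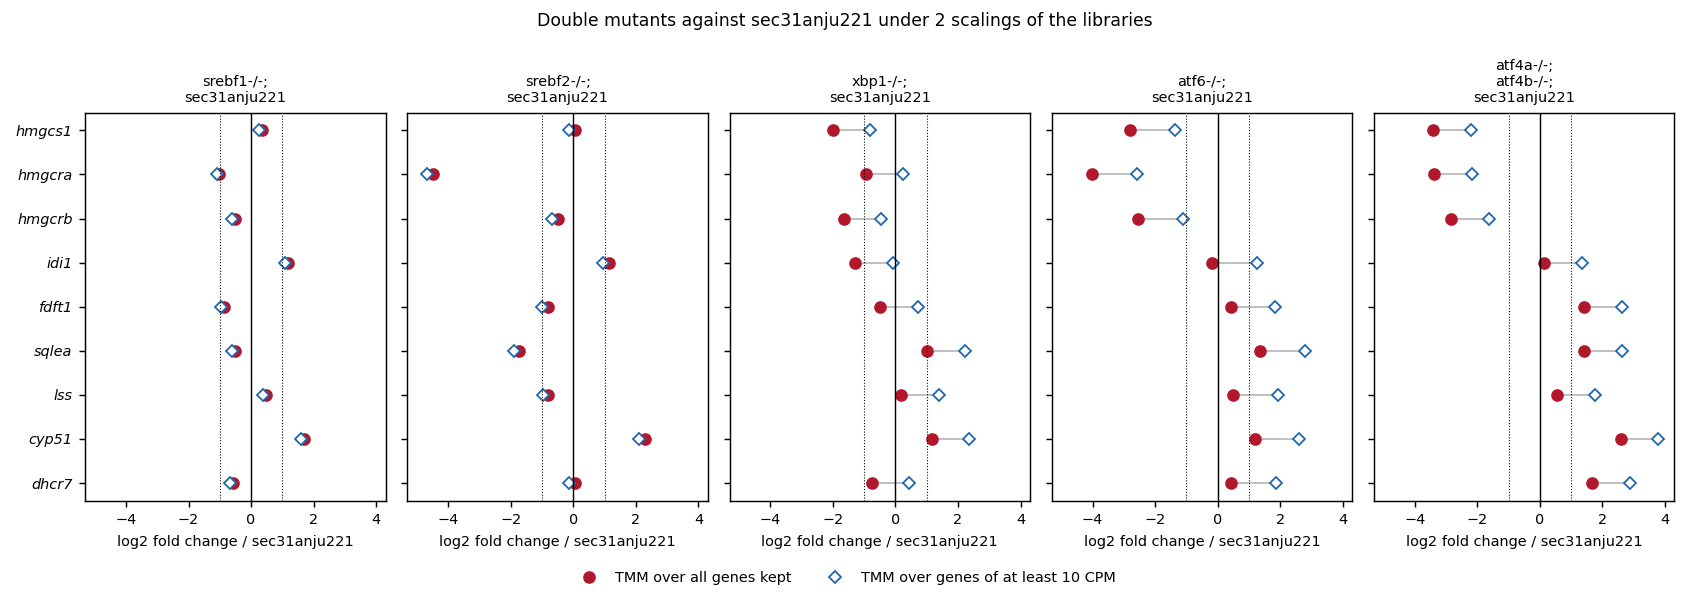
Log2 fold change of the 9 enzyme genes in each of 5 genotypes against sec31anju221, with red points for TMM scaling over all genes kept, blue diamonds for scaling over genes of at least 10 CPM and dotted lines at a fold of 2. The points of a gene lie close in the srebf1 and srebf2 double mutants and apart by 1.19 to 1.43 in the other 3 genotypes, where hmgcs1 and hmgcra stay at -1.37 or below under both scalings in the atf6 double mutant and in the libraries labelled atf4a/b.

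Ratios between genes of the same library do not depend on the scaling. The share of hmgcra in the counts of both reductase genes was 20% in WT, with an exact Clopper-Pearson interval of 17.4 to 22.8%. It was 53.3% in sec31anju221 (51.9 to 54.6%) and 44.8% in the srebf1 double mutant (43.0 to 46.6%). In the srebf2 double mutant it was 6.58% (5.29 to 8.07%), below that of every other genotype. In the xbp1 double mutant it was 65.1% (63.4 to 66.7%), above every other genotype. The atf6 double mutant had 29.1% (25.9 to 32.4%) and the libraries labelled atf4a/b 43.6% (39.9 to 47.3%). Of these shares, those of the srebf1 double mutant and the libraries labelled atf4a/b were within each other's intervals. The intervals cover counting error only and hold for these libraries. How multiply mapped reads were handled is not given in the sources used here, so the division between these paralogs, and between sqlea and sqleb, is uncertain to that extent.

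**Figure D4:**
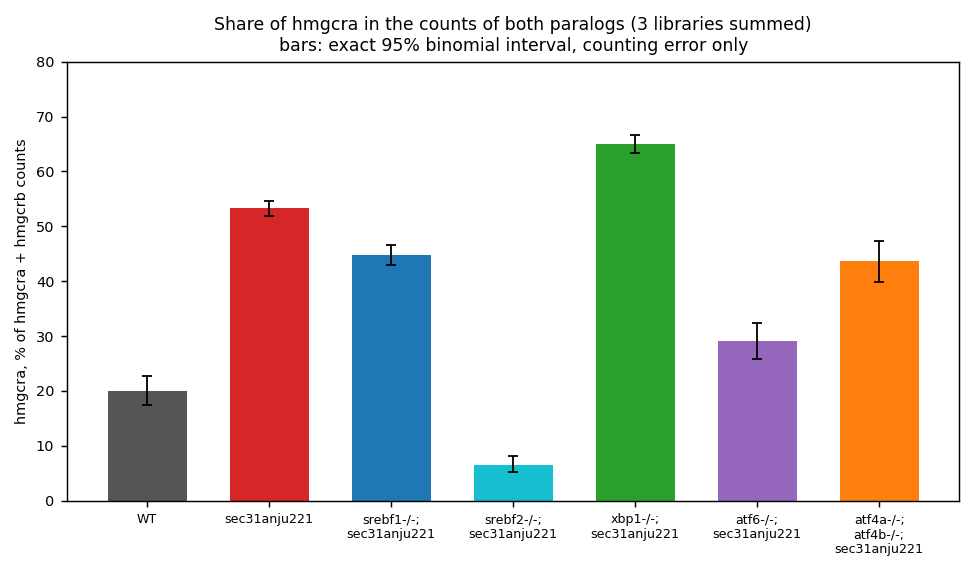
Share of hmgcra in the summed counts of hmgcra and hmgcrb in percent, by genotype, with bars for the 3 libraries summed and whiskers for the exact 95% binomial interval. The share runs from 6.58% in the srebf2 double mutant to 65.1% in the xbp1 double mutant, with WT at 20% and sec31anju221 at 53.3%.

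The synthase gene hmgcs1 and hmgcrb, 1 of the genes of the reductase that follows it, kept a narrower ratio. The share of hmgcs1 in their joint counts was 33.2% in WT, 42.6% in sec31anju221, 57.3% in the srebf1 double mutant, 51.9% in the srebf2 double mutant, 36.7% in the xbp1 double mutant, 38.4% in the atf6 double mutant and 32.9% in the libraries labelled atf4a/b. Over the 7 genotype means, their levels on the log2 scale had a Pearson correlation of 0.96. That of hmgcra, the other reductase gene, was 0.50 with hmgcrb and 0.43 with hmgcs1. Of 36 pairs of the 9 enzymes, 8 had a correlation above 0.5 and 10 one below -0.5, among them hmgcs1 with sqlea at -0.92. These correlations are over 7 points that share the scaling and are descriptions only.

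In the summed counts of the 9 enzymes, without correction for gene length, the share of each gene shifted with genotype. The share of dhcr7 was 38.8% in WT, 23.2% in sec31anju221, 68.0% in the atf6 double mutant and 82.4% in the libraries labelled atf4a/b. The share of hmgcra was 5.95% in WT, 28.8% in sec31anju221, 1.84% in the srebf2 double mutant and 33.0% in the xbp1 double mutant. The share of cyp51 was 5.82% in WT, 0.244% in sec31anju221 and 1.02 to 1.73% in the others. Each of these shares in sec31anju221 had a range over libraries that did not meet that of WT. The summed level was 87.2 CPM in WT, 210 CPM in sec31anju221 and 95.1 CPM in the xbp1 double mutant, but before TMM scaling it was 42.3, 160 and 198 CPM, so its order depends on the scaling.

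**Figure D5:**
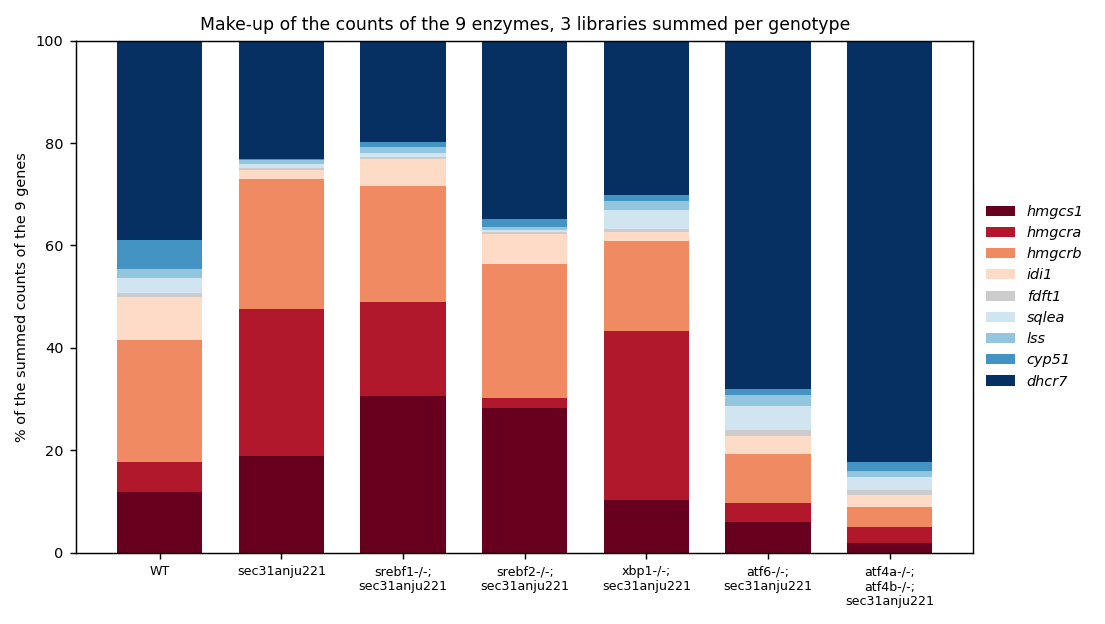
Stacked shares of the 9 enzyme genes in their summed counts, in percent, for the 3 libraries of each genotype together. The hmgcra band is widest in sec31anju221 (28.8%) and the xbp1 double mutant (33.0%), and the dhcr7 band takes 82.4% in the libraries labelled atf4a/b.

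The sensors of sterol showed another order. Of 13 genes of sterol sensing and reductase turnover, 1 (mbtps2) was higher and 2 (insig1 and insig2) were lower in sec31anju221 than in WT, beside 13.8% and 10% of all genes. Among the most changed at 5 CPM or more were insig1, which encodes a protein that retains SREBP in the ER and helps degrade the reductase, and mbtps2, the gene of a protease that releases SREBP and Atf6. The level of insig1 was 242 CPM in WT, 71.2 CPM in sec31anju221 (log2 -1.76), 31.0 CPM in the srebf1, 93.4 CPM in the srebf2 and 48.3 CPM in the xbp1 double mutant. It was 512 CPM in the atf6 double mutant and 705 CPM in the libraries labelled atf4a/b, log2 2.85 and 3.31 above sec31anju221. Before TMM scaling insig1 had 54.2 CPM in sec31anju221, 52.4 CPM in the srebf2 and 101 CPM in the xbp1 double mutant. Where these double mutants stand against sec31anju221 thus depends on the scaling. The level of mbtps2 was 36.9 CPM in sec31anju221 and 16.3 CPM in WT (log2 1.18). The srebf2 gene itself was at 4.68 CPM in WT and 4.45 CPM in sec31anju221, with a log2 fold change of -0.07. In the double mutants and the libraries labelled atf4a/b, in the order srebf1, srebf2, xbp1, atf6 and atf4a/b, 1, 1, 0, 2 and 2 of the 13 were higher and 3, 5, 5, 5 and 2 lower. Over all genes the shares in that order were 12.0, 11.7, 10.9, 14.6 and 13.5% higher and 14.7, 25.0, 17, 19.9 and 18.6% lower, and they apply also to the lists that follow. Of genes of 10 CPM or more, however, 60.5, 67.9 and 58.2% were called lower with xbp1 disrupted, with atf6 disrupted and under the atf4a/b label. The lists hold genes of that class, among them mbtps2, ldlra and nus1, for which the lower shares of all genes are too low a measure.

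In the list of uptake, storage and efflux of cholesterol, 1 of 14 genes was higher and 2 (mylipa and abcg1) were lower in sec31anju221 than in WT, shares near the 13.8% and 10% of all genes. The efflux transporter gene abca1b was higher (log2 1.21), and mylipa, whose mammalian orthologue encodes a ligase that degrades the LDL receptor, was lower (log2 -2.15), while its paralog mylipb had a log2 fold change of 0.80. In the same order of genotypes 0, 3, 2, 2 and 2 of the 14 were higher and 2, 2, 6, 5 and 5 lower. The LDL receptor gene ldlra was named after its values were seen because SREBP2 drives it in mammals. With TMM scaling it had 110 CPM in WT, 65.2 CPM in sec31anju221 (log2 -0.75, not called) and 90.3 CPM in the srebf2 double mutant. Before TMM scaling its means in these genotypes were 53.1, 49.7 and 50.7 CPM, so these differences depend on the scaling.

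Genes that use the isoprenoids made from mevalonate were also measured. Of 8 genes, 1 was higher and 3 were lower in sec31anju221 than in WT, beside 13.8% and 10% of all genes. The higher gene was nus1, which encodes a subunit of the enzyme that makes dolichol chains. It had 44.4 CPM in WT, 376 CPM in sec31anju221 (log2 3.08), 243 CPM in the srebf1, 97.9 CPM in the srebf2 and 33.2 CPM in the xbp1 double mutant, 12.5 CPM in the atf6 double mutant and 12.3 CPM in the libraries labelled atf4a/b. Before TMM scaling the means of nus1 were 21.5 CPM in WT and 286 CPM in sec31anju221. They were 69.2 CPM in the xbp1 and 26 CPM in the atf6 double mutant and 19.3 CPM under the atf4a/b label. Where the xbp1 and atf6 double mutants stand against WT thus depends on the scaling. The lower genes were pdss2 of coenzyme Q synthesis (log2 -2.45) and the farnesyltransferase subunit genes fnta (log2 -1.31) and fntb. In the order used above, 4, 3, 0, 0 and 0 of the 8 were higher and 1, 2, 4, 4 and 3 lower.

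The genes most like the mean standardized profile of the 9 enzymes over the 7 genotypes, among 6717 genes of at least 10 CPM in 1 genotype, were nat8 (Pearson r 0.940), IMMP1L (0.927), eps8l1b (0.919), TKT (0.894) and cyp27a1.1 (0.880), with symbols as the name table gives them. The enzymes themselves correlated with that mean at only -0.08 (hmgcrb) to 0.56 (fdft1), so it stands for none of them well. The intestine marker fabp2, named after its values were seen, had 1670 CPM in WT, 3260 CPM in sec31anju221, 2920 CPM in the srebf1, 574 CPM in the srebf2, 558 CPM in the xbp1 and 24.6 CPM in the atf6 double mutant and 71.6 CPM in the libraries labelled atf4a/b. With TMM scaling its level and that of hmgcra were both highest in sec31anju221, while before it hmgcra was higher in the xbp1 double mutant, at 63.3 to 67.3 CPM against 43.9 to 47.7 CPM, and its part in the values of hmgcra was not tested. Before TMM scaling fabp2 had 808 CPM in WT and 1160 CPM in the xbp1 double mutant, the reverse of their order after it. Other intestine markers had other orders. The level of apoa4b.2 was 1030 CPM in WT and 660 CPM in sec31anju221. That of vil1 was 2.68 CPM in sec31anju221, 5.65 CPM in the atf6 double mutant and 6.6 CPM in the libraries labelled atf4a/b. The sums of intestine markers given above are mostly fabp2 and apoa4b.2.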

How the data were processed

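Livers dissected at 7 dpf were dissociated with trypsin and used for low-input RNA-seq in 7 genotypes with 3 libraries each. The authors mapped read pairs to GRCz11 with HISAT2 2.1.0 and counted them with featureCounts 1.6.0. The deposited files, 1 per library, give raw counts of read pairs for each gene. The Ensembl release, the strand setting and the treatment of multiply mapped reads are not given in the sources used here.

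All 21 libraries entered a quasi-likelihood fit with TMM factors (edgeR 4.0.16 under R 4.3.3). DESeq2 1.42.0 served as an alternative, and plots were drawn in Python 3.11.15 with matplotlib 3.10.9. A gene needed 10 normalized counts over all libraries to be kept. Of 32520 identifiers 29201 had a symbol. Others were matched where at least 3 of 15 neighbours on each side were shared with a reference table of another assembly, so no coordinates are given. This matched 9 of 9 enzymes (4 through neighbours), 16 of 18 other steps, 13 of 13 sensing, 14 of 15 uptake and 8 of 8 isoprenoid genes, 9 of 9 hepatocyte, 5 of 9 exocrine pancreas and 5 of 6 intestine markers. Markers of erythrocytes, leukocytes, endothelium, fibroblasts, bile ducts, muscle, epidermis and neurons matched 4 of 6, 4 of 6, 3 of 4, 4 of 4, 3 of 3, 3 of 4, 3 of 4 and 3 of 4. They summed to at most 183, 6.88, 47.3, 69.4, 3890, 15.7, 40.4 and 8.68 CPM in any library.

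Named were the enzymes, the other steps over 2-fold changed between sec31anju221 and WT or in the srebf2 double mutant, the 3 most changed genes of each further list at 5 CPM or more, and the 5 genes of most similar pattern. A gene that this rule names in the sensing list is not reported here. Members and lists were chosen with earlier results of these data known. The fits were tested on simulated data. Libraries of the same number in different genotypes did not deviate together (correlations of -0.0858 to 0.0695). Alternatives were other scalings, filters, thresholds, libraries summed or left out, fits to 6 libraries and a replicate block. A planned search of promoters for motifs was not run.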

Additional observations from a re-analysis of the deposited data

How the results depend on the processing

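For each comparison the count of enzymes over 2-fold higher in sec31anju221 against WT, or lower than in sec31anju221, was recomputed. Of 114 such counts 99 stayed within 1.5 times the value given and 15 moved. Beyond the arithmetic of thresholds and scalings, the cause was not tested. In the srebf1 double mutant the count of 1 lower enzyme was 0 with DESeq2, RLE factors, filterByExpr, a fold over 3, summed libraries or only 6 libraries, 2 at a fold over 1.5 and 5 with scaling to 8 hepatocyte markers, a setting added after the data were seen. In the xbp1 double mutant the count of 3 lower enzymes was 0 with TMM factors from genes of at least 10 CPM, library totals or hepatocyte markers, and 5 at a fold over 1.5. In the srebf2 double mutant the 2 lower enzymes became 4 with library totals and 7 with hepatocyte markers, and in sec31anju221 against WT the 3 higher became 6 with hepatocyte markers. Those scalings shift all genes alike, by 0.65, -0.43 and 1.45 (log2) with library totals in sec31anju221 against WT and in the srebf2 and xbp1 double mutants, and by 1.27, -2.10 and 1.21 with hepatocyte markers. The sign of idi1 turned in the xbp1 double mutant with library totals (log2 0.16) and in the srebf2 double mutant with hepatocyte markers (log2 -0.97). Leaving out single libraries kept the 6 counts at 1 to 3. In the srebf2 double mutant lss was also lower without the second sec31anju221 library. In the srebf1 double mutant fdft1 took the place of hmgcra in 2 cases. With the replicate block the counts were again 3, 1, 2, 3, 3 and 3, hmgcra was at a log2 fold change of 3.54 in sec31anju221 against WT, and no call changed. Depth limits fdft1, lss, sqlea and cyp51, which had as few as 13 to 26 counts in a genotype.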
